A study of Nematostella vectensis with 18 samples.

Results

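A set of 47 genes of the sea anemone Nematostella vectensis was examined, chosen for lower transcript levels in cells sorted as Ncol3-positive than in Ncol3-negative cells and for a small difference between Nep3-positive and Nep3-negative cells. They were chosen from these same values. For every gene CPM (counts per gene scaled by library size and TMM factor) was put on a log2(CPM + 1) scale and averaged within each population. A gene entered when its highest population mean was at least 10 CPM, the Ncol3-positive mean lay at least 1 below the Ncol3-negative mean, and the Nep3-positive and Nep3-negative means lay less than 0.5 apart. Of 23764 gene IDs with any count, 11677 reached 10 CPM and 47 met all criteria, which is under the limit of 150 set for the list, so all were kept. Both positive-against-negative differences chose the genes, and they are given below as a description. Counts of genes called by a test stand beside the share called among all genes. No exact p-value is given for a gene of the set, and where a single gene is said to be called, this is a description too.

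The libraries were poly(A) RNA-seq of tentacle cells from untreated polyps, sorted by fluorescence. Ncol3-positive (4 libraries) and Ncol3-negative cells (4) came from the Ncol3::mOrange reporter line. Nep3-positive (5) and Nep3-negative cells (5) came from the Nep3::mOrange reporter line. In each line the fluorescent protein mOrange marks cells in which the promoter region of the named gene was active, and each negative population is all remaining tentacle cells of that line, which can still hold unmarked cnidocytes. The labels do not say whether libraries of a population came from separate animals, so p-values measure the spread between these libraries, which may be technical.

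Cnidocytes are the stinging cells of cnidarians. Each builds a capsule in a Golgi-derived vesicle, with a wall of cross-linked minicollagens, and discharges it once. Ncol3 encodes a minicollagen of the capsule wall and serves as a general cnidocyte marker, and Nep3 encodes a toxin precursor found in nematocytes, the cnidocytes that inject venom. The tentacle also holds epithelial, gland, muscle and nerve cells, which fall into the negative gates. In bulk samples, fewer cells of a type and less RNA per cell cannot be told apart.

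The files give genes by ID only, and 0 of the IDs matched the RefSeq gene table (assembly jaNemVect1.1), so no name, function, position or sequence is given for any gene, and cell type markers other than the reporter could not be looked up. Library totals ran from 5463324 to 15269119 counts. The reporter transcript mOrange2 averaged 975 ± 286 CPM in Ncol3-positive and 293 ± 73.4 CPM in Ncol3-negative libraries (SD, n = 4 each; exact permutation test, two-sided, p = 0.0286). It averaged 715 ± 156 CPM in Nep3-positive and 85.9 ± 68.7 CPM in Nep3-negative libraries (SD, n = 5 each; exact permutation p = 0.00794). Both p-values are the smallest that these designs allow, and in neither line did positive and negative libraries overlap.

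The 47 genes were a small fringe of the genes low in Ncol3-positive cells. At 10 CPM or more, 718 genes had an Ncol3 difference of −1 or lower, and 667 of these were also lower by 0.5 or more in Nep3-positive than in Nep3-negative cells. A further 4 were higher by 0.5 or more in Nep3-positive cells. Within the set the Nep3 difference leaned to the same side: it was below 0 for 36 genes and above 0 for 11, with a median of −0.25, and only 5 genes had a size under 0.1. The Ncol3 difference had a median of −1.19 and a lowest value of −2.47, and for 16 genes it lay between −1.1 and −1. Over all 18975 genes tested the median was 0.00 for the Ncol3 difference and 0.01 for the Nep3 difference.

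**Figure D1:**
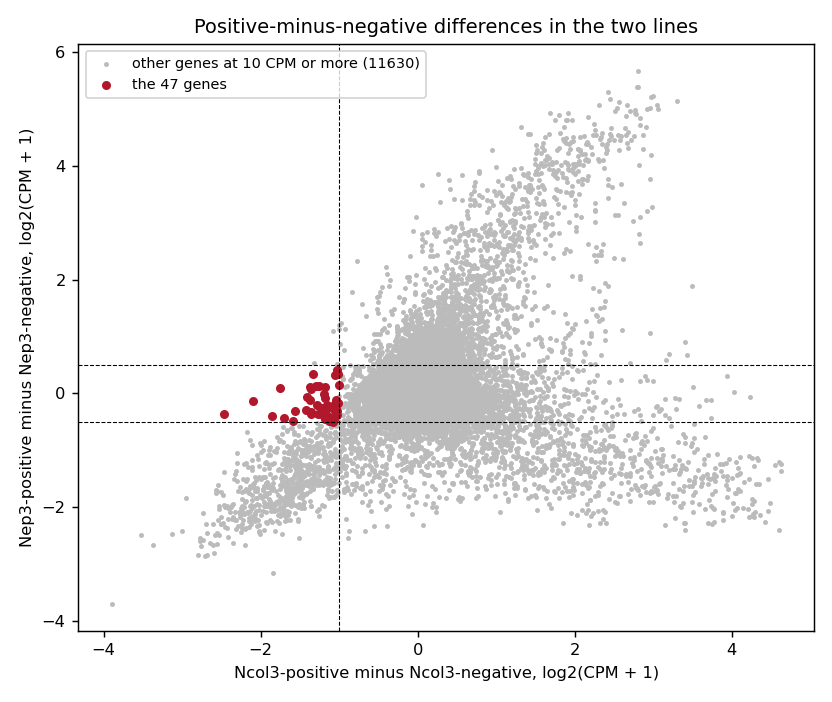
Each point is a gene with a highest population mean of at least 10 CPM, placed by the Ncol3-positive minus Ncol3-negative difference (x axis) and the Nep3-positive minus Nep3-negative difference (y axis), both in log2(CPM + 1). Dashed lines mark −1 on the x axis and −0.5 and 0.5 on the y axis; the 47 genes (red) lie at the upper edge of a cloud of genes that were low in both positive populations.

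The size of the set depended strongly on whether libraries were scaled beyond their totals, and on single libraries. TMM factors lay between 0.537 and 0.945 in Ncol3-positive and between 1.19 and 1.30 in Ncol3-negative libraries. With library size alone the Ncol3 difference had a median of −0.63 over all genes tested, and 1672 genes met the criteria, 46 of the 47 among them. Other scaling methods changed the set little. With DESeq2 size factors 50 genes met the criteria, 46 of the 47 among them. With TMM factors computed without the 20 highest genes the same 47 did. Leaving out Ncol3-negative replicate 1 or 3 gave 88 or 98 genes, leaving out Ncol3-positive replicate 1 gave 75, and leaving out Nep3-negative replicate 1 or 2 gave 74 or 78. Of the 47 genes, 23 stayed in the set in all 18 repeats that left out a library each.

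Genes on either side of each limit differed little. NV2.21423 was the last to enter, with an Ncol3 difference of −1.004, and NV2.9908 was the first left out, with −0.998. On the Nep3 side NV2.11946 entered with a difference of −0.4989, and NV2.5164 stayed out with −0.5078. NV2.13847 had the lowest peak level of the set, 11.3 CPM in Ncol3-negative cells, and NV2.2829, which met the other criteria, stayed out with 9.74 CPM.

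The drop in Ncol3-positive cells was present in most libraries. For 40 of the 47 genes every Ncol3-positive library lay below every Ncol3-negative library, which held for 11.9% of all genes tested. The edgeR quasi-likelihood test called 46 genes lower, against 11.1% of all genes tested; the choice of the genes fixed these counts. The summed level of the 47 genes was 1614, 1756, 1850 and 1985 CPM in Ncol3-positive replicates 1 to 4. It was 4420, 3721, 4410 and 4177 CPM in Ncol3-negative replicates 1 to 4. This sum is weighted to abundant genes such as NV2.17732 and NV2.18989, with Ncol3-negative means of 1785 and 519 CPM. For 41 of the 47 genes that mean was under 100 CPM. The median level of the genes, in log2(CPM + 1), was 3.76, 3.53, 3.24 and 3.34 in Ncol3-positive replicates 1 to 4. In Ncol3-negative replicates 1 to 4 the median was 4.66, 4.70, 4.71 and 4.68. In the Nep3 line the sum was 4188 ± 273 CPM in positive and 4787 ± 882 CPM in negative libraries (SD, n = 5 each), and the populations overlapped.

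The description of the genes as unchanged in the Nep3 line rests on the size of the difference. The edgeR test called 4 of the 47 lower in Nep3-positive cells, against 17.9% of all genes tested, and 0 higher, against 19.7%; the limit of 0.5 on this difference keeps such calls few, and nothing is read from these counts. NV2.6306, named after its values were seen, was the single gene with no overlap between Nep3 libraries, against 13.9% of all genes tested with no overlap in this direction. It was at 11.1, 10.7, 12.6, 11.9 and 12.1 CPM in Nep3-positive replicates 1 to 5, against 15.2, 15.0, 17.3, 16.6 and 13.3 CPM in Nep3-negative replicates 1 to 5. Whether the differences of the lines differed from each other was called for 33 of the 47 genes, with the less negative value in the Nep3 line, against 10.2% of all genes tested, and it was not called for the other 14. Because the criteria keep the lines apart by construction, nothing is read from the 33; for the 14 a difference between the lines was not shown.

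A level in the Nep3 line can be the same in both gates and still be high or low. For each gene the mean of the Nep3-positive and Nep3-negative levels was placed between the Ncol3 populations, with 0 at the Ncol3-positive mean and 1 at the Ncol3-negative mean. The median position was 0.777. For 19 genes it lay from 0.777 to 1.21, near the Ncol3-negative level, and for 5 from 1.28 to 2.03, above it. It was from 0.292 to 0.742 for 18 genes, between the Ncol3 populations. For the last 5 genes it was from −1.22 to 0.243, close to the Ncol3-positive level or below it. Ncol3-positive cells had the lowest mean of the 4 populations for 41 genes. The highest mean was in Ncol3-negative cells for 26 genes, in Nep3-negative cells for 16 and in Nep3-positive cells for 5.

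**Figure D2:**
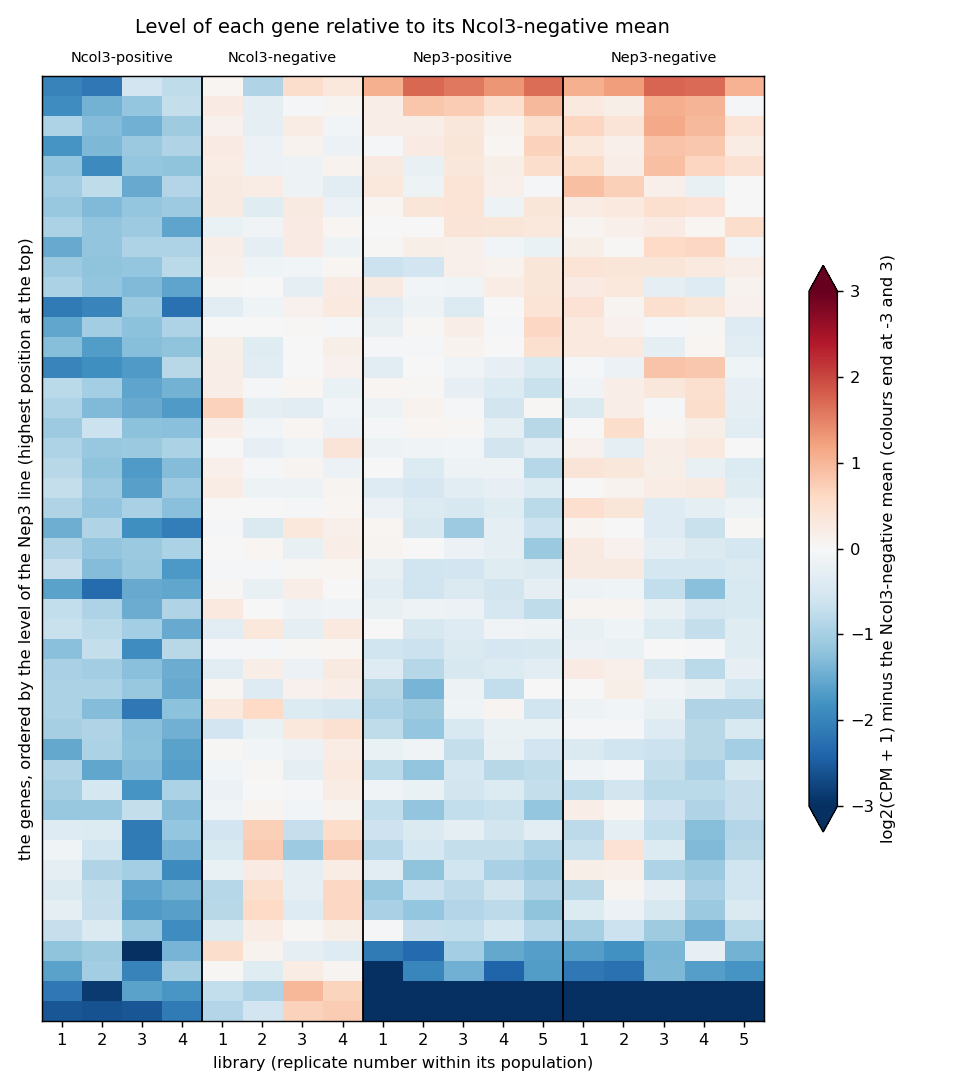
Each row is a gene and each column a library, grouped as Ncol3-positive, Ncol3-negative, Nep3-positive and Nep3-negative; colour gives log2(CPM + 1) minus the Ncol3-negative mean of the gene, and rows run from the highest to the lowest position of the Nep3 line. Ncol3-positive libraries are blue in most rows, while the Nep3 libraries pass from red at the top, where position is highest (2.03), to dark blue in the 2 bottom rows.

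The levels of the lines were set against each other as the mean of both Nep3 populations over the mean of both Ncol3 populations. The choice of the genes bears on this contrast too, through the low Ncol3-positive mean and the minimum of 10 CPM, so its values are a description. It was called for 26 of the 47 genes (edgeR quasi-likelihood test, p-values adjusted over 18975 genes with the Benjamini-Hochberg method, threshold 0.05). The Nep3 line was higher for 23 of them, or 48.9% of the set, against 14.1% of all genes tested, and lower for 3, against 13.2%. The median log2 fold change was 0.36 in the set and 0.01 over all genes tested. A gene whose Nep3 levels equal its Ncol3-negative level has a value of about 0.5 or more here by its selection, so nothing is read from these counts. Position is built from the same means and is no separate evidence. Line, animals and sort cannot be told apart in this contrast.

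Set directly beside each other, and without a test because the Ncol3 means chose the genes, the negative populations had medians near each other, with a wider spread in the set than among other genes. Nep3-negative minus Ncol3-negative had a median of −0.15 on the log2(CPM + 1) scale and quartiles of −0.50 and 0.18, against a median of 0.01 and quartiles of −0.22 and 0.22 over all genes tested. It was within 0.5 of 0 for 31 genes, at or above 0.5 for 4 and at or below −0.5 for 12. Nep3-positive minus Ncol3-positive had a median of 0.78, against 0.07 over all genes tested, and was above 0 for 43 of the 47 genes.

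**Figure D3:**
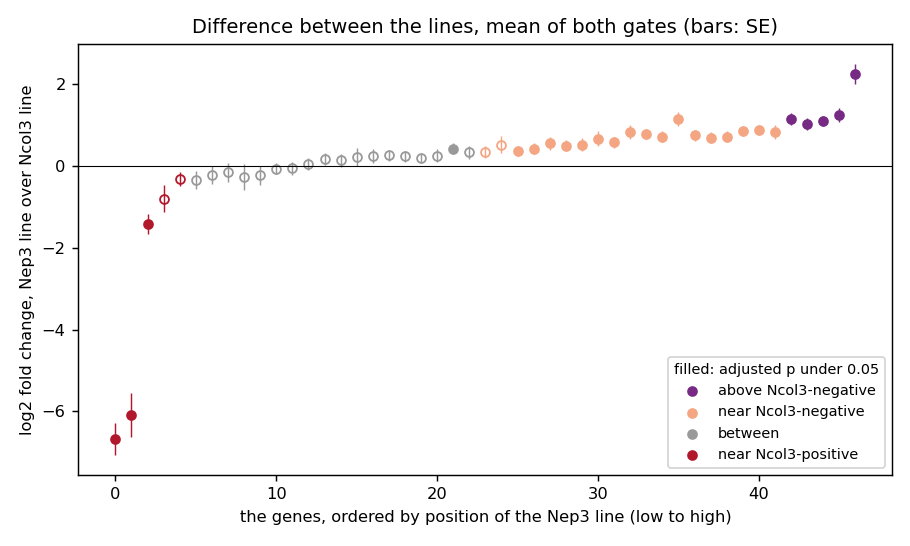
Each point is a gene, ordered from low to high position of the Nep3 line; the y axis gives the log2 fold change of the Nep3 line over the Ncol3 line with its standard error, colour gives the position class, and filled points passed an adjusted p of 0.05. The lowest values, −6.68 and −6.08, stand far below the rest, and the highest is 2.24.

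NV2.17732 took the largest share of counts in the set. It was at 618, 776, 927 and 924 CPM in Ncol3-positive replicates 1 to 4, against 2022, 1440, 2095 and 1582 CPM in Ncol3-negative replicates. Nep3-positive replicates 1 to 5 had 1793, 1999, 1967, 1668 and 1538 CPM, and Nep3-negative replicates had 1984, 1814, 2678, 2718 and 1654 CPM. All Ncol3-positive libraries were thus below all others, and the Nep3 gates overlapped. The fitted log2 fold change of the Nep3 line over the Ncol3 line was 0.71 (SE 0.14).

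NV2.18989 came next in share of counts and stood above its Ncol3-negative level in most Nep3 libraries. It was at 141, 193, 228 and 311 CPM in Ncol3-positive replicates 1 to 4, against 609, 423, 501 and 544 CPM in Ncol3-negative replicates. Nep3-positive replicates 1 to 5 had 590, 916, 874, 715 and 1004 CPM, and Nep3-negative replicates had 634, 585, 1090, 1051 and 499 CPM. Nep3-negative replicates 3 and 4 were the highest of their population, as they were for NV2.17732. The log2 fold change between the lines was 1.24 (SE 0.17), and every Nep3 library lay above every Ncol3-positive library.

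NV2.19921 had the highest fold change between the lines. Nep3-positive replicates 1 to 5 had 19.0, 30.6, 27.7, 23.1 and 29.9 CPM and Nep3-negative replicates had 19.2, 21.9, 31.3, 30.1 and 18.9 CPM. Ncol3-positive replicates 1 to 4 had 1.39, 1.18, 5.48 and 4.66 CPM and Ncol3-negative replicates had 9.09, 4.16, 12.8 and 10.9 CPM. Every Nep3 library exceeded every Ncol3 library, with a log2 fold change of 2.24 (SE 0.25). The gene reached 10 CPM in the Nep3 populations only, so it entered the set through the line in which it is high. In the Ncol3 line its gates overlapped, since Ncol3-negative replicate 2 lay below Ncol3-positive replicates 3 and 4.

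NV2.17422 and NV2.17421, which had the lowest Ncol3 differences of the set, were almost absent from the Nep3 line. NV2.17422 was at 8.24, 7.97, 8.31 and 11.7 CPM in Ncol3-positive replicates 1 to 4, against 29.1, 35.7, 87.9 and 92.3 CPM in Ncol3-negative replicates. In the Nep3 line it had 6 counts over all positive and 24 over all negative libraries, with 0 in Nep3-positive replicates 1, 2 and 3. Ncol3-negative replicates 3 and 4 were far above replicates 1 and 2, so the Ncol3 difference was −1.87 within replicates 1 and 2 and −3.07 within replicates 3 and 4.

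The partner NV2.17421, whose ID number is the neighbouring one, had the same profile. Its levels were 2.78, 1.31, 4.49 and 4.00 CPM in Ncol3-positive replicates 1 to 4, against 9.03, 7.82, 32.4 and 25.8 CPM in Ncol3-negative replicates. It had 3 counts over all Nep3-positive and 10 over all Nep3-negative libraries. Again Ncol3-negative replicates 3 and 4 were the high ones. Both Nep3 means of both genes were under 1 CPM, so their small Nep3 difference is that of values near the floor of the log2(CPM + 1) scale and cannot show whether the gates differ.

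Between the lines the log2 fold change was −6.68 for NV2.17422 (SE 0.39) and −6.08 for NV2.17421 (SE 0.54). Both genes reached 10 CPM in Ncol3-negative cells only and so entered the set through the line in which they are high. In both genes every Nep3 library lay below every Ncol3 library. From counts pooled over all libraries of each line and scaled by total and TMM factor, the Ncol3 line was 142-fold higher for NV2.17422 (exact 95% interval 99.5 to 211). It was 106-fold higher for NV2.17421 (61.6 to 199). These intervals cover counting error only. Pooling weights libraries by depth, while the log2 fold changes above weight the populations equally, so these are different quantities. How the counting treated reads that match several genes is not given in the sources used here. Whether NV2.17422 and NV2.17421 share reads could not be looked up, so the split of reads between them is uncertain. NV2.16998 was the other gene called lower in the Nep3 line, at 3.48 ± 1.83 CPM in Nep3-positive and 4.19 ± 1.31 CPM in Nep3-negative libraries (SD, n = 5 each), with 6.03 ± 2.19 CPM in Ncol3-positive and 17.2 ± 2.96 CPM in Ncol3-negative libraries (SD, n = 4 each). The log2 fold change of the Nep3 line over the Ncol3 line was −1.42 (SE 0.24). It too reached 10 CPM in Ncol3-negative cells only, and its Nep3 levels overlapped those of Ncol3-positive cells.

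**Figure D4:**
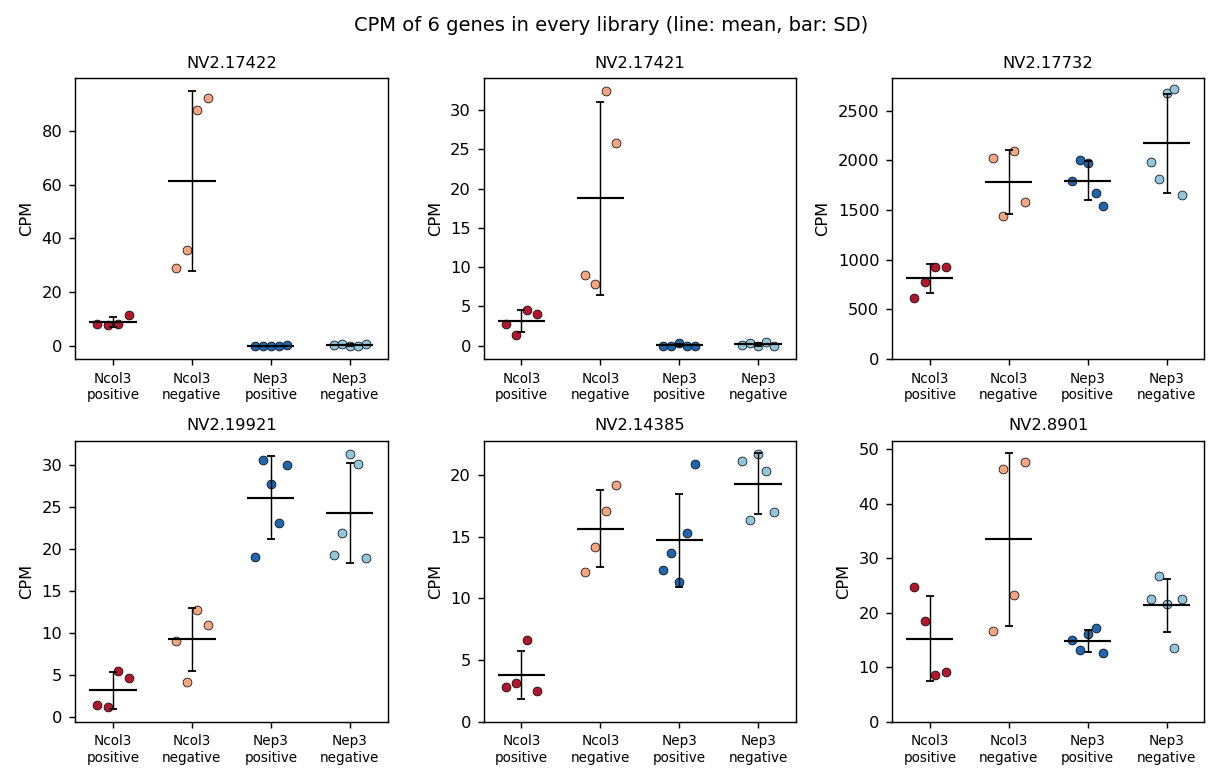
CPM of 6 of the genes in every library of the 4 populations (points), with the mean (line) and SD (bar) of each population. NV2.17422 and NV2.17421 are near 0 in the Nep3 line, and NV2.19921 is highest there. For NV2.17732 and NV2.14385 every Ncol3-positive library is below all others. NV2.8901 overlaps between the Ncol3 gates.

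NV2.14385 and NV2.8342, named after their values were seen, were at 10 CPM or more in both Nep3 populations. NV2.14385 had the lowest Ncol3 difference (−1.86) among genes with at least 10 CPM in both Nep3 populations. It was at 2.78, 3.14, 6.65 and 2.50 CPM in Ncol3-positive replicates 1 to 4, against 12.2, 14.1, 17.1 and 19.2 CPM in Ncol3-negative replicates, while Nep3-positive replicates 1 to 5 had 12.3, 13.7, 11.4, 15.3 and 20.9 CPM and Nep3-negative replicates had 21.1, 16.4, 21.7, 20.3 and 17.0 CPM. The Nep3 gates overlapped only through Nep3-positive replicate 5. Its Nep3 difference was −0.39, and −0.54 without that library, which is outside the limit of 0.5. The Ncol3 difference of NV2.14385 was alike within replicates 1 and 2 (−1.83) and within replicates 3 and 4 (−1.89). NV2.8342 had the smallest Nep3 difference of the set, 0.00 on the log2 scale.

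For NV2.8342, Ncol3-positive replicates 1 to 4 had 13.5, 11.2, 12.1 and 8.33 CPM, against 23.3, 24.97, 31.9 and 27.9 CPM in Ncol3-negative replicates. Nep3-positive replicates 1 to 5 had 27.0, 27.2, 35.4, 34.6 and 33.5 CPM, against 28.5, 30.0, 32.2, 28.2 and 38.9 CPM in Nep3-negative replicates. The Nep3 gates overlapped, and both lay above all Ncol3-positive libraries.

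The Ncol3 libraries were not equally clear. Ncol3-positive replicates 1 and 2 stood apart from 3 and 4 over all genes, not in this set alone. Chi-square per degree of freedom was 7.29 between 1 and 2, 8.08 between 3 and 4, and 65.7 to 91.5 across. TMM factors were 0.945 and 0.890 in replicates 1 and 2, against 0.590 and 0.537 in 3 and 4. The reporter mOrange2 was at 685 and 783 CPM, against 1162 and 1272 CPM. The part of this split in the values below was not tested. The median Ncol3 difference of the 47 genes was −1.07 within replicates 1 and 2 and −1.42 within replicates 3 and 4, and it was lower in the second pair for 32 genes. Taken alone, replicates 1 and 2 gave −1 or lower for 27 of the genes and replicates 3 and 4 for 42. In 8 genes the difference was above −0.7 within replicates 1 and 2 and at or below −1.4 within replicates 3 and 4. They include 6 of the 7 genes in which the Ncol3 gates overlapped.

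The largest gaps of this kind were in NV2.8901 and NV2.8900, another pair with neighbouring ID numbers, named after their values were seen. NV2.8901 was at 24.6, 18.6, 8.64 and 9.16 CPM in Ncol3-positive replicates 1 to 4, against 16.6, 46.4, 23.1 and 47.6 CPM in Ncol3-negative replicates. NV2.8900 was at 13.2, 10.6, 5.32 and 6.16 CPM in Ncol3-positive replicates 1 to 4, against 9.52, 25.7, 14.9 and 28.3 CPM in Ncol3-negative replicates. In both genes Ncol3-positive replicate 1 exceeded Ncol3-negative replicate 1, and Ncol3-negative replicates 2 and 4 were the high ones. Ncol3-negative replicates 2 and 4 also had the lowest totals of their population, 6092256 and 5463324 counts. Replicates 1 and 3 had 13624512 and 11292199 counts. The part of depth in this was not tested. With NV2.17422 and NV2.17421, 4 of the 47 genes had an ID number next to that of another gene of the set. Whether the numbers follow the genome is not given in the sources used here.

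NV2.16270, also named after its values were seen, had the highest Nep3 difference, 0.42 on the log2 scale. Nep3-positive replicates 1 to 5 had 20.7, 12.9, 12.4, 14.4 and 11.2 CPM, against 10.2, 13.2, 9.66, 7.23 and 11.7 CPM in Nep3-negative replicates. Ncol3-positive replicates 1 to 4 had 12.7, 15.5, 9.14 and 5.16 CPM, against 15.5, 24.97, 22.0 and 24.1 CPM in Ncol3-negative replicates. Its gates overlapped in both lines, and its highest mean was in Ncol3-negative cells.

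Within populations the median spread of the genes was near that of all genes tested. Their pooled SD within populations had a median of 0.317 on the log2(CPM + 1) scale, against 0.323 over all genes tested. The latter include genes below the minimum of 10 CPM, so these medians were not matched for level. Nep3-negative libraries differed most as to the set: the median deviation of the 47 genes from the population mean was 0.06, 0.23, 0.03, −0.13 and −0.21 in replicates 1 to 5. In replicate 5, 10 of the 47 genes lay above the population mean, and in replicate 2, 34 did. The reporter mOrange2 was at 36.6, 31.8, 45.3, 185 and 131 CPM in the same libraries, so the pair with most reporter had the lowest median deviations. The summed level did not follow this order: it was 4520, 4295, 5793, 5600 and 3725 CPM in replicates 1 to 5. This sum is weighted to abundant genes, among them NV2.17732 and NV2.18989, which were highest in replicates 3 and 4 of this population. The part of reporter-carrying cells in these differences between Nep3-negative libraries was not tested. Without Nep3-negative replicates 4 and 5, a choice made after seeing the data, 42 genes met the criteria, 39 of the 47 among them.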

How the data were processed

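The deposited file is a single table of raw counts per gene for 18 libraries; the authors applied no normalization to it, as the whole numbers with unequal totals show. Per the submitters' processing notes, Trimmomatic, STAR 2.7.10a and featureCounts 2.0.1 were used; settings, strand handling, genome build and annotation are not given in the sources used here. Populations and replicate numbers follow the titles, which list 5 libraries per Nep3 population; the submitters describe a design with 4 per condition, so every Nep3 n, SD and exact p rests on the titles. The descriptions of all Nep3-positive libraries repeat the number 1, and all libraries carry the same batch label. Counts of replicates differed by more than sampling noise (chi-square per degree of freedom at least 6.26), and all were kept.

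CPM used TMM factors from the 23764 gene IDs with any count. Tests used edgeR 4.0.16 in R 4.3.3: filterByExpr left 18975 genes, all 47 genes included, and a robust quasi-likelihood model had a mean per population, with Benjamini-Hochberg adjustment at 0.05. SE is the size of the log2 fold change divided by the root of F. CPM is not divided by gene length, so levels are compared within a gene. The model was tested on simulated data with 200 genes changed by 1 on the log2 scale between the lines. It called 71.5% of these genes, and 2.055% of all calls were false. The simulated libraries were independent and had no gate differences, so this test does not cover the structure of the data. Alternatives used DESeq2 1.42.0 and limma 3.58.1. Named genes are those with the lowest Ncol3 difference, the largest share of counts, the extreme line fold changes and positions, and those at the limits; the limit of 150 was not reached, so the limit of −1 took its place. The genes, the rule and the lists were chosen with earlier results of these data known.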

Additional observations from a re-analysis of the deposited data

Results flagged for a closer look

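In groups of 4 or 5 libraries, a library whose gap to the nearest other exceeded Dixon's 95% value was looked for in 68 groups, of which 4 met this; chance gives about 1 in 20. NV2.13847 was at 8.98 CPM in Nep3-negative replicate 4, against 2.36 to 3.62 CPM in the other Nep3-negative libraries. NV2.14385 was at 6.65 CPM in Ncol3-positive replicate 3, against 2.50 to 3.14 CPM in the others. NV2.17421 was at 0.304 CPM in Nep3-positive replicate 3, which is 3 counts, and at 0 in the others. NV2.17422 was at 11.7 CPM in Ncol3-positive replicate 4, against 7.97 to 8.31 CPM in the others.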

How the results depend on the processing

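The number of genes that met the criteria was 47, from 42 to 98 when each library was left out in turn, 204 with only Ncol3 replicates 3 and 4, and 1672 with library size alone. In the other 6 alternatives it lay within 1.5 times 47. They include leaving out Nep3-negative replicates 4 and 5, a choice made after seeing the data. With only Ncol3 replicates 1 and 2 the number was 40, of which 24 were among the 47. Of the 47 genes, 14 met the criteria in all 26 alternatives. The cause of these shifts was not tested beyond the use of library size alone, which moved the median Ncol3 difference of all genes.

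The count of genes called between the lines, 26, stayed between 25 and 28 when each library was left out, and was 21 with only Ncol3 replicates 1 and 2, 25 with only replicates 3 and 4 and 27 with DESeq2. Deviations of same-numbered libraries correlated at 0.03 to 0.30 in the Ncol3 line and −0.03 to 0.33 in the Nep3 line. The negative library of the same number was the best match for 2 of 4 Ncol3-positive and 3 of 5 Nep3-positive libraries. The correlation was not above 0.1 in every pair, so same-numbered libraries were not treated as pairs. With the replicate block, in limma-voom, 23 genes were called, all among the 26. The fold change of NV2.11946 between the lines, −0.07 and not called, reversed to 0.0941 with library size alone and to 0.0568 without Nep3-negative replicates 4 and 5. Those of NV2.8901 and NV2.8900, −0.35 and −0.23 and not called, reversed to 0.0424 and 0.0537 with only Ncol3 replicates 3 and 4. None of the reversed values was called. NV2.13847, not called at −0.81, was called in 6 alternatives, among them the DESeq2 test and those without Ncol3-positive replicate 3, Nep3-negative replicate 4 or Nep3-positive replicate 3.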

Other observations

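NV2.17422 and NV2.17421 were 2 of 22 genes, among the 18975 tested, with a log2 fold change of −5 or lower between the Nep3 and Ncol3 lines (edgeR, adjusted p under 0.05). A value of 5 or higher was found for 5 genes, none of them in the set of 47. NV2.17422 and NV2.17421 reached 10 CPM in Ncol3-negative cells only. They entered the set through the line in which they are high, so their place among the 22 is a description.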
